A study of Mus musculus with 12 samples.

Results

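The interferon response genes are 37 listed mouse genes that are known to be induced by interferons or to act in sensing and answering them. They were followed on 12 one-colour arrays of RNA from mouse embryonic stem (ES) cells. All probes of the listed genes were taken by the gene name on the array, where Irf9 is written Isgf3g, Dhx58 is D11Lgp2e, Gbp3 is Gbp4 and Irgm1 is Irgm. Names were updated through RefSeq accessions where these matched. A gene was kept if a probe of it was well above background on at least 2 arrays, and 36 of the 37 were kept, of 27946 genes on the array. No probe was matched to Xaf1. Mx1 stood just inside the rule with 2 arrays and was not tested, because each of its 2 probes was above background on 1 array. Ifi44 followed with 4 arrays, Iigp1 with 7, Ifit2 with 9 and Ifit1 with 10. The members were selected on measured values, because the list was drawn up with differences between these arrays in view and the rule uses detection on them. So 35 members were among the 21374 genes tested, and 27 of them were well above background on every array.

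The 6 groups are serum-free cultures at days 0, 3 and 10 and cultures in fetal bovine serum (FBS) at the same days, with 2 arrays per group. One array of each group came from the reporter line Dazl-GFP and one from the reporter line Stella-GFP. The serum-free arm grew in B27N2 medium and is called the 2i condition in the labels. The FBS arm grew in DMEM with 15% FBS. All cultures held leukemia inhibitory factor (LIF) and irradiated mouse embryonic fibroblasts, the feeder cells on which ES cells attach. In the labels 2i stands for PD0325901 (1 µM), which blocks the kinase MEK, with Kenpaullone (5 µM), which blocks GSK3β. The labels do not say whether serum-free cells at day 0 or FBS cells at any day had received them.

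Interferons are secreted proteins that cells make after nucleic acid sensors such as Ddx58 (RIG-I) and Ifih1 (MDA5) bind foreign RNA. Type I interferons signal through the receptor pair Ifnar1 and Ifnar2 and the kinases Jak1 and Tyk2 to a complex that holds Stat2 and Irf9 and binds the interferon-stimulated response element (ISRE). Interferon gamma acts through the gamma-activated sequence (GAS), and the induced factor Irf1 binds ISRE-like sites too. The induced genes code for antiviral effectors, for the ubiquitin-like protein Isg15 and its enzymes, for GTPases that act on vacuoles of microbes, and for antigen presentation by MHC class I. ES cells are known for making little interferon and answering it weakly compared with fibroblasts.

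Promoter windows show how far the members share these elements. RefSeq windows on GRCm38.p6, from 250 bases before a gene's start to 50 after it, were given for 29 of the 37 listed genes. The ISRE core was searched as GAAA, any 2 bases and GAAA, or TTTC, any 2 bases and TTTC for the other strand. GAS was searched as TTCNNNGAA, which reads the same on both strands. Overlapping matches were joined, and an ISRE core and a GAS match overlapped in Bst2. An ISRE core lay in a window of 15 of the 29 genes (51.7%), against 3.99% of the 27025 genes with a window. GAS lay in 10 of the 29 (34.5%), against 9.55% of all genes. Both were found in 4 members and neither in 8, and the windows of Psmb9 and Tap1 overlap on opposite strands of chromosome 17. A match is a run of letters and not a measured site. The 6 windows shown here belong to members with an arm or day difference described here, and capitals mark the ISRE core matches, or in Psmb8 the GAS match.
Isg15 (chr4:156200769-156201068, minus strand): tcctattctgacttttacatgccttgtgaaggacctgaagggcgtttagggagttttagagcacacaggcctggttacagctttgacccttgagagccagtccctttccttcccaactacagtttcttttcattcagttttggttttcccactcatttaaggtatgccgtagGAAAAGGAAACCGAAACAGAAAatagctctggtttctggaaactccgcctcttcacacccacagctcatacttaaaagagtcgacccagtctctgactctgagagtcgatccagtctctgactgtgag
Ifit3 (chr19:34583279-34583578, plus strand): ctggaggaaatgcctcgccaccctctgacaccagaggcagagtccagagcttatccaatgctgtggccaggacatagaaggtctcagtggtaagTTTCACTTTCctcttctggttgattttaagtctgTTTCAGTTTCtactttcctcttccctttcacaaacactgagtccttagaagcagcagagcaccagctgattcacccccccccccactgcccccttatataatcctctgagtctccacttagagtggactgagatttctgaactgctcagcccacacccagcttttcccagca
Ddx58 (chr4:40239776-40240075, minus strand): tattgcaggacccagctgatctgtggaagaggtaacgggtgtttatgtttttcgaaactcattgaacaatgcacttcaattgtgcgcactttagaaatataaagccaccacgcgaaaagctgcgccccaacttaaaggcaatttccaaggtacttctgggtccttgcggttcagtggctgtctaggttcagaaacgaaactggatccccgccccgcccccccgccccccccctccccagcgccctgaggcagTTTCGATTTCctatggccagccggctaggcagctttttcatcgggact
Irgm1 (chr11:48871371-48871670, minus strand): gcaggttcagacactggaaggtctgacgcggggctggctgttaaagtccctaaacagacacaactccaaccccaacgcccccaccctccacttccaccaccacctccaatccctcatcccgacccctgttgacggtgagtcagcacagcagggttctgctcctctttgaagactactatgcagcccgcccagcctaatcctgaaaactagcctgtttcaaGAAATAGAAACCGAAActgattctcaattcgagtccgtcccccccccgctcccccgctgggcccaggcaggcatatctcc
Gbp2 (chr3:142620413-142620712, plus strand): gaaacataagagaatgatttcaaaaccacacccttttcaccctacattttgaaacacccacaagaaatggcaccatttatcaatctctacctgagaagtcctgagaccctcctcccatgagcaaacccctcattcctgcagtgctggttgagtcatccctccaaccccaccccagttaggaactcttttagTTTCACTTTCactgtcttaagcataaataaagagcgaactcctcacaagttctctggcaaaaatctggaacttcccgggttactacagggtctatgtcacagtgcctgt
Psmb8 (chr17:34197945-34198244, plus strand): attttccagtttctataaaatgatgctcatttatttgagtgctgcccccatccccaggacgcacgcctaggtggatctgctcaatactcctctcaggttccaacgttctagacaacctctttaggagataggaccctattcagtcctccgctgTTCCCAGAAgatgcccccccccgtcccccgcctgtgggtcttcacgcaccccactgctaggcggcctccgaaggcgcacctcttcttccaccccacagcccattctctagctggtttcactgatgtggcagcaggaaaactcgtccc
Isg15 held 3 overlapping ISRE core matches that began 78 bases before the start. Ifit3 held 2 separate ones at 156 and 122 bases before it. In Irgm1 a pair of overlapping matches began 30 bases before the start, in Gbp2 a single one began 59 before it, and in Ddx58 it lay just after the start. The Psmb8 window held no ISRE core, and its GAS match began 97 bases before the start.

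Levels are given as scaled intensity, an array's signal divided by its 75th percentile and multiplied by 707.9, the geometric mean of these percentiles. Each pair of values names the Dazl-GFP and then the Stella-GFP array of a group. Differences are on the log2 scale from 1 limma fit of the 6 groups and the line on all 12 arrays, with their standard error (SE). A difference was called at an adjusted p under 0.05 after Benjamini-Hochberg adjustment over all 21374 genes. The labels do not say that the lines were cultured more than once, so p-values here cover just the spread from array to array. On the arrays 64.0% to 74.4% of spots were well above background, and pairs of arrays correlated at 0.941 to 0.987 over genes. The arrays lay on 3 slides of 4. The 7 ES cell markers (Pou5f1, Nanog, Sox2, Zfp42, Esrrb, Tdgf1 and Utf1) were well above background on all 12 arrays. Of the 14 fibroblast markers 13 were too, and a bulk signal cannot tell fewer cells of a type from less RNA per cell.

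The members varied widely between arrays. Their values spanned 1.27 log2 units for B2m to 5.41 for Iigp1, with a median span of 3.14. The serum-free day 10 Stella-GFP array held the highest value of 16 of the 35 members, and the FBS day 10 Dazl-GFP array held the lowest value of 14. As a mean of log2 values about each gene's own mean, the members stood at 0.45 and 0.42 at day 0, 0.24 and -0.01 at day 3, and 0.31 and 1.00 at day 10 in serum-free cells. The FBS means were -0.56 and -0.51 at day 0, -0.05 and 0.36 at day 3, and -1.21 and -0.44 at day 10. At days 0 and 10 both serum-free means lay above both FBS means, and at day 3 they lay between the FBS means. The 35 passed a filter on detection, and members that passed mainly through the arrays where they were high had to differ. The counts below are therefore descriptions. For each comparison the calls of the fit on all arrays are also counted over the 27 members measured on all arrays.

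**Figure D1:**
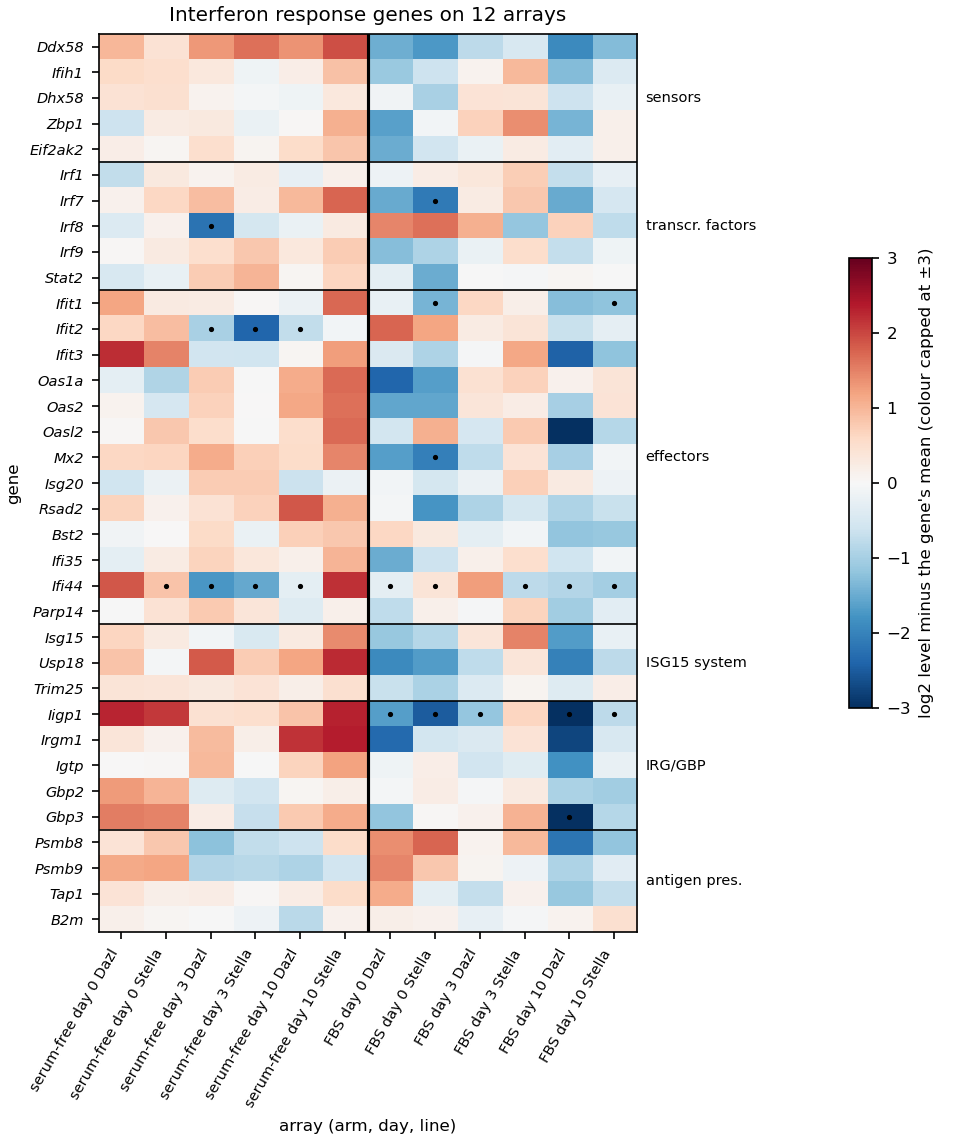
Log2 levels of the 35 tested interferon response genes (rows, by role) on the 12 arrays (columns), each minus the gene's mean over the arrays. Dots mark values not well above background; the serum-free day 10 Stella-GFP column is the reddest (highest for 16 genes) and the FBS day 10 Dazl-GFP column the bluest (lowest for 14).

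The first comparisons ask how the arms differed on each day. At day 0 the RNA sensor Ddx58, the transcription factor Irf9, the GTPase genes Iigp1 and Gbp2 and the antiviral GTPase Mx2 were higher in serum-free cells. These 5 of 35 members were called higher, against 0.997% of all genes, and 0 were called lower (0.842% of all genes). The members' median difference was 1.16, against -0.01 over all genes tested, and 23 members were higher in both lines. The share of all genes with the same sign in both lines was not counted, here or below. Of the 27 members measured on all arrays 3 were called higher and the median was 1.03. Values of the arms did not overlap for 21 members that were higher (22.5% of all genes) and 4 that were lower (27.1%). At day 3 Ddx58 was again higher, while Ifit2 and the immunoproteasome subunit Psmb8 were lower. The day 3 counts of 1 higher and 2 lower stood against 9.07% and 13.5% of all genes, and the median was 0.06 against -0.21. There 8 members were higher without overlap (24.4% of all genes) and 10 lower (41.7%). On that day 1 of the 27 measured on all arrays was called higher and 1 lower, and their median was 0.17. At day 10, 12 members were called higher in serum-free cells, against 2.01% of all genes, and 0 lower (3.54%). They were Ddx58, Irf7, Irf9, Ifit3, Oasl2, Rsad2, Bst2, Usp18, Iigp1, Irgm1, Gbp2 and Psmb8. The day 10 median was 1.40, against 0.11 over all genes, and 29 members were higher in both lines. Of the 27 measured on all arrays 10 were called higher and the median was 1.17. Serum-free and FBS values did not overlap for 26 members that were higher at day 10 (33.9% of all genes) and 1 that was lower (21.6%).

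Slides and single arrays bear on these counts. When limma had the slide as a block it called 0 members at day 0, 1 at day 3 and 0 at day 10, with medians of 1.34, 0.28 and 1.90. Over all genes it called 0, 1404 and 0. The 1 at day 3 was Usp18, at 2.06 (adjusted p = 0.0421). Neither at day 0 nor at day 10 did a slide carry both arms. At day 3 slide 2 held a serum-free Dazl-GFP and an FBS Stella-GFP array, which differed by a median of 0.05 over the members (-0.21 over all genes). The day 10 count was 1 without the serum-free Stella-GFP array of that day, 0 without the serum-free Dazl-GFP array and 0 without the FBS Dazl-GFP array, while the other 9 omissions gave 8 to 13. Over all genes these 3 omissions left 427, 8 and 14 called, against 1187 on all arrays, and the others 339 to 1520. At day 0 the count was 0 without any 1 of the serum-free arrays of days 0 and 3 or the FBS day 0 Stella-GFP array, 3 without either FBS day 10 array and 2 without any other, while 3 to 243 of all genes were called, against 393 on all arrays. At day 3 it was 1 without the serum-free Stella-GFP array of that day, 6 without either FBS day 0 array, and 2 to 4 otherwise, with 1186, 5775 and 1074 to 4578 of all genes called, against 4822 on all arrays.

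**Figure D2:**
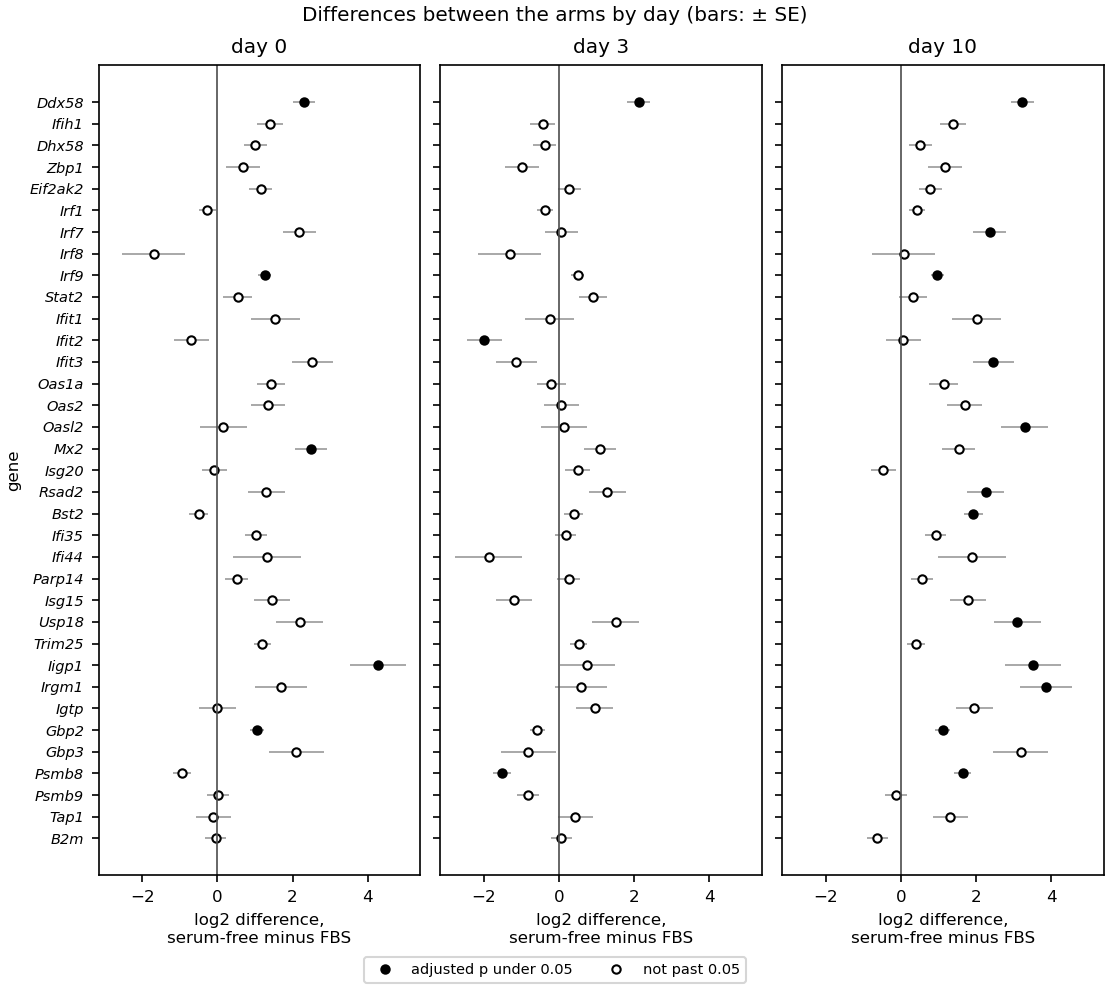
Log2 difference, serum-free minus FBS, of each interferon response gene at days 0, 3 and 10 with its standard error; filled points passed an adjusted p of 0.05. Points lie mostly right of 0 at days 0 and 10 (medians 1.16 and 1.40) and on both sides at day 3 (median 0.06).

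The next comparisons ask how the members moved from day 0 within an arm. In FBS cells 9 members rose by day 3, against 6.67% of all genes: the sensors Ifih1 and Zbp1, Irf7, Irf9, Oas1a, Oas2, Mx2, Ifi35 and Isg15. The immunoproteasome genes Psmb8 and Psmb9 fell (2 of 35, against 5.19%). The median change was 0.94, against 0.10 over all genes, and 23 members were higher than at day 0 in both lines. Over the 27 members measured on all arrays 7 rose, 2 fell and the median was 0.87. Days 3 and 0 did not overlap for 21 members that were higher at day 3 (32.2% of all genes) and 7 that were lower (20.0%). In serum-free cells 0 members rose by day 3 (5.94% of all genes) and 5 fell (7.83%), namely Ifit2, Ifit3, Gbp2, Psmb8 and Psmb9. Of the serum-free members 18 had a positive and 17 a negative change, with a median of 0.16. Of 35 members 12 passed an unadjusted p of 0.05 there, as did 6573 genes in all. Without overlap 7 were higher (26.1% of all genes) and 14 lower (31.5%). Over the 27 members measured on all arrays 0 rose, 4 fell and the median was 0.24. By day 10 in serum-free cells Oas1a rose (1 of 35, against 2.15% of all genes) and Gbp2 and Psmb9 fell (2, against 3.04%). Here 12 members were higher without overlap (37.2% of all genes) and 6 lower (21.5%). Over the 27 members measured on all arrays 1 rose and 2 fell, with a median of 0.39, against 0.18 over the 35. By day 10 in FBS cells Irf9 and Oas1a rose (2, against 7.71%). Ifit2, Oasl2, Bst2, Gbp2, Psmb8 and Psmb9 fell (6, against 5.31%). In that comparison 8 members were higher without overlap (24.3% of all genes) and 12 lower (27.0%). Over the 27 members measured on all arrays 2 rose and 5 fell, with a median of 0.05, against 0.02 over the 35.

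The change by day 3 was called as different between the arms for Gbp2 (serum-free minus FBS change, 1 of 35 lower, against 1.13% of all genes, and 0 higher, against 0.44%). The median of this difference over the members was -0.85, against -0.13 over all genes, and it was negative in both lines for 24 members. With normexp background correction 12 members were called in it, and 3159 genes in all, against 336 genes without it. Without normexp, 1 of the 27 members measured on all arrays was called lower and 0 higher, with a median of -0.69. By day 10 limma called 0 members in the difference of changes (0.0187% of all genes higher and 0.0421% lower), while 5 members and 4173 genes passed an unadjusted p of 0.05. With normexp 2 members and 332 genes were called there, and 1 was called from the authors' table.

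Pairs of arrays on the same slide gave the day changes without a slide difference. On slide 1 the FBS Dazl-GFP members stood at a median of 0.53 above day 0 at day 3 and at -0.50 at day 10, where all genes stood at 0.20 and 0.01. Serum-free Stella-GFP members on slide 3 stood at -0.20 at day 3 and 0.79 at day 10 (all genes -0.06 and 0.05), and serum-free Dazl-GFP members on slide 2 at 0.31 at day 3 (all genes -0.01). On slide 2, 29 of 35 members of FBS Stella-GFP cells were lower at day 10 than at day 3 (median -0.84, all genes -0.07), and on slide 1, 30 of 35 members of FBS Dazl-GFP cells were (median -1.03, all genes -0.17). On slide 3 the serum-free Stella-GFP cells went the other way, with 30 of 35 members higher at day 10 than at day 3 (median 1.01, all genes 0.13). These pairs are single arrays and were not tested. When the slide was a block, limma called 4 members in FBS cells by day 3 (Ifih1, Irf9, Oas1a and Ifi35), 0 in serum-free cells by day 10, 7 in serum-free cells by day 3 (1 higher and 6 lower) and 6 in FBS cells by day 10 (1 higher and 5 lower). Over all genes it called 727, 0, 2597 and 1308 in these 4 comparisons. The FBS day 3 count of 11 was 0 without the Stella-GFP array and 1 without the Dazl-GFP array of that group, where 306 and 494 of all genes were called, against 2534 on all arrays. It was 10 without either FBS day 10 array, 7 without either serum-free day 3 array and 5 without any other array. The serum-free day 3 count of 5 was 0 without the Dazl-GFP and 4 without the Stella-GFP array of day 0, 1 without the Stella-GFP and 3 without the Dazl-GFP array of day 3, and 5 to 7 otherwise. These 4 omissions left 247, 748, 437 and 557 of all genes called, against 2943. Without any 1 of the 4 serum-free day 0 and day 10 arrays, the serum-free day 10 count of 3 was 0, with 0 to 252 of all genes called against 1109, and it was 2 or 3 otherwise. The FBS day 10 count of 8 was 2 without the Dazl-GFP array of that group, 5 without the Stella-GFP array of that group, the Stella-GFP array of FBS day 0, or any array of serum-free day 0 or FBS day 3, and 6 or 7 otherwise. The first of these left 665 of all genes called, against 2784.

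**Figure D3:**
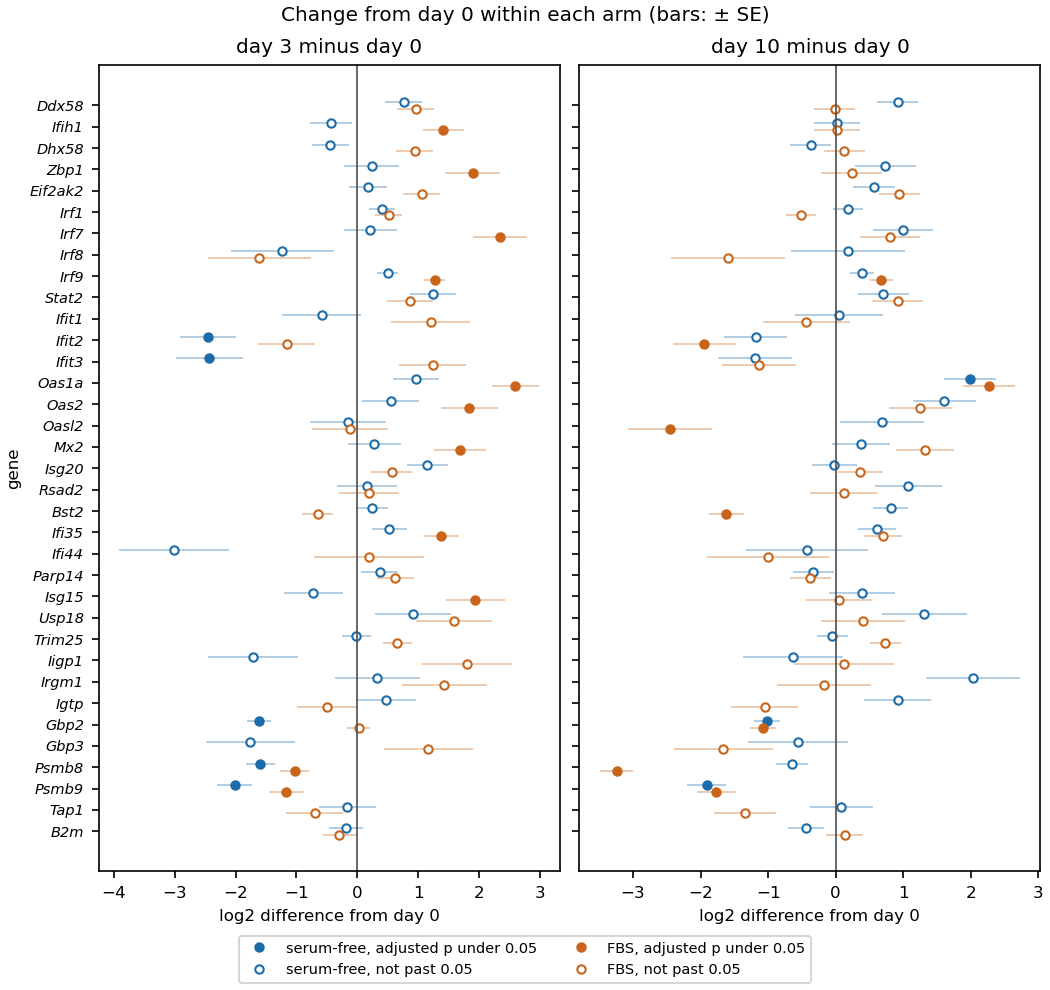
Log2 change from day 0 to day 3 (left) and day 10 (right) of each interferon response gene in serum-free and FBS cells with its standard error; filled points passed an adjusted p of 0.05. At day 3 the FBS points of Irf7, Oas1a and Isg15 lie right of the serum-free ones, and at day 10 those of Oasl2, Bst2 and Psmb8 lie left.

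Among the 5 sensors Ddx58 (RIG-I), which binds RNA with a triphosphate end, was higher in serum-free cells at every day. In serum-free cells Ddx58 had 939 and 641 units at day 0, 1166 and 1485 at day 3 and 1199 and 1789 at day 10. Ddx58 in FBS cells had 170.4 and 144, 273 and 338, and 126 and 191 units at these days. The lowest serum-free value, 641, lay above the highest FBS value, 338. The arm difference was 2.31 (SE 0.30, adjusted p = 0.0239) at day 0, 2.11 (SE 0.30, adjusted p = 0.00542) at day 3 and 3.24 (SE 0.30, adjusted p = 0.00583) at day 10. At day 3 the call held in all 12 fits that left out an array and became 2.10 (adjusted p = 0.0562) with the slide as a block. All 4 Ddx58 probes were higher in serum-free cells at each day.
Ifih1 (MDA5), a sensor of long double-stranded RNA, moved in FBS cells. In serum-free cells Ifih1 had 59.4 and 56.7 units at day 0, 50.4 and 36.9 at day 3 and 46.2 and 74.4 at day 10. Ifih1 in FBS cells had 18.6 and 25.9, 43.5 and 78.7, and 16.3 and 30.4 units at these days. Both FBS day 3 values were above both FBS day 0 values, a rise of 1.41 (SE 0.34, adjusted p = 0.0389). Zbp1, a sensor of left-handed nucleic acids that can start cell death, did likewise. In serum-free cells Zbp1 had 70.7 and 129 units at day 0, 134 and 94.9 at day 3 and 112 and 226 at day 10. Zbp1 in FBS cells had 35.1 and 102, 174 and 284, and 41.4 and 120.3 units at these days. Its FBS day 3 change was 1.89 (SE 0.45, adjusted p = 0.0375), and the FBS values of day 10 lay near those of day 0. The arms overlapped at days 0 and 10, and at day 3 both FBS values lay above both serum-free ones. Dhx58 (LGP2), which modulates both RNA sensors, and Eif2ak2 (PKR), a kinase that blocks translation on binding double-stranded RNA, were called in none of these comparisons at the probe tested. Dhx58 lay between 150.5 and 230 units in serum-free cells and between 83.3 and 219 in FBS cells, and Eif2ak2 between 366 and 631 and between 126 and 421.

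Of the 5 transcription factors Irf7, which drives interferon genes and is itself induced, was lowest in FBS cells at days 0 and 10. In serum-free cells Irf7 had 42.6 and 59.8 units at day 0, 74.4 and 46.1 at day 3 and 76.8 and 132 at day 10. Irf7 in FBS cells had 13.8 and 9.01, 46.1 and 68.6, and 13.7 and 27.6 units at these days. The arms did not overlap at days 0 and 10 and did at day 3, and at FBS day 0 Irf7 was well above background on 1 of 2 arrays. Irf7 was higher in serum-free cells at day 10 by 2.37 (SE 0.44, adjusted p = 0.0281) and rose in FBS cells by day 3 by 2.34 (SE 0.44, adjusted p = 0.0183). Irf9, the DNA-binding subunit of the complex that binds the ISRE, was measured on all arrays. In serum-free cells Irf9 had 883 and 1033 units at day 0, 1215 and 1505 at day 3 and 1070 and 1463 at day 10. Irf9 in FBS cells had 354 and 451, 751 and 1235, and 522 and 783 units at these days. The arms did not overlap at day 0 or at day 10 and did at day 3. Its arm differences were 1.26 (SE 0.17, adjusted p = 0.0258) at day 0 and 0.97 (SE 0.17, adjusted p = 0.0257) at day 10, and it rose in FBS cells by 1.27 (SE 0.17, adjusted p = 0.00796) to day 3 and by 0.68 (SE 0.17, adjusted p = 0.0422) to day 10. A second Irf9 probe had the same signs and passed in none of these comparisons. It gave 0.64 (adjusted p = 0.136) and 0.90 (adjusted p = 0.0527) between the arms. In FBS cells it changed by 0.63 (adjusted p = 0.0876) to day 3 and 0.23 (adjusted p = 0.495) to day 10. Both Irf9 calls between arms were lost with the slide as a block, as all day 0 and day 10 arm calls were. They became 1.07 (adjusted p = 0.331) and 0.98 (adjusted p = 0.366).
At the probes tested for each gene, Stat2, Irf1 and Irf8 were called in no arm or day comparison. Stat2 had 456 to 1292 units in serum-free and 228 to 664 in FBS cells, with the highest 2 at serum-free day 3. Irf1, induced mostly by interferon gamma, lay between 3348 and 6820 in serum-free and between 3435 and 9418 units in FBS cells. A second Irf1 probe was higher at day 3 than at day 0 in serum-free cells, by 0.97 (adjusted p = 0.0493). Irf8, a factor of myeloid cells, had 148 and 167 units at FBS day 0, and its 2 probes differed in sign at day 10 between the arms (0.07 and -1.83). At the second Irf8 probe, above background on 9 arrays, serum-free cells had 158 and 126 units at day 0, 9.56 and 12.5 at day 3 and 9.595 and 23.75 at day 10. FBS cells had 445.5 and 213, 62.35 and 40.4, and 46.7 and 61.4 units there. Both arms were highest at day 0. That probe changed from day 0 by -3.69 (adjusted p = 0.00746) to day 3 and -3.22 (adjusted p = 0.0196) to day 10 in serum-free cells, and by -2.62 (adjusted p = 0.0209) and -2.52 (adjusted p = 0.02) in FBS cells. It was also lower in serum-free cells at day 3, at -2.20 (adjusted p = 0.0221), where the first was at -1.32 (SE 0.84, adjusted p = 0.274).

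The IFIT genes code for proteins that bind viral RNA, and Ifit1, Ifit2 and Ifit3 lie near one another on chromosome 19. Ifit3 changed its order between the arms from day to day. In serum-free cells Ifit3 had 607 and 363 units at day 0, 87.5 and 86.5 at day 3 and 135 and 309.5 at day 10. Ifit3 in FBS cells had 96.4 and 68.9, 126 and 293, and 24.2 and 56.8 units at these days. Both serum-free values lay above both FBS values at days 0 and 10 and below them at day 3. Ifit3 was higher in serum-free cells at day 10 by 2.46 (SE 0.55, adjusted p = 0.0462) and changed in serum-free cells by day 3 by -2.43 (SE 0.55, adjusted p = 0.0295). The day 0 arm difference of 2.52 (SE 0.55, adjusted p = 0.0644) did not pass. A second Ifit3 probe, above background on 5 arrays, passed in neither of the called comparisons. It gave 3.06 (adjusted p = 0.128) between the arms at day 10. In serum-free cells it changed by -1.29 (adjusted p = 0.4365) to day 3. In serum-free cells Ifit2 had 32.4 and 39.6 units at day 0, 10.6 and 4.02 at day 3 and 12.5 and 19.9 at day 10. Ifit2 in FBS cells had 70.7 and 47.7, 24.7 and 27.3, and 13.2 and 17.2 units at these days. The Ifit2 values were highest in FBS cells at day 0, and no serum-free array was well above background at day 3. Ifit2 was at least 2.36-fold lower in serum-free cells at day 3 (adjusted p = 0.0234), and serum-free cells at day 3 were at least 3.26-fold lower than at day 0 (adjusted p = 0.0181). These bounds set the mean of the bright group against the lowest signal counted as well above background on the dim arrays. The adjusted p beside each is from the limma test of the measured values, and not of the bound. In FBS cells Ifit2 changed by day 10 by -1.94 (SE 0.46, adjusted p = 0.0345). Ifit1 ranged from 21.8 to 81.5 units in serum-free and from 9.27 to 37.4 in FBS cells, and its arm difference at day 10 of 2.02 (SE 0.65, adjusted p = 0.117) did not pass.

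The OAS proteins make an oligonucleotide that switches on an RNA-degrading enzyme. Oas1a rose from day 0 in both arms. In serum-free cells Oas1a had 691 and 453 units at day 0, 1417 and 836 at day 3 and 1811 and 2723 at day 10. Oas1a in FBS cells had 162 and 269, 1161 and 1363, and 919 and 1094 units at these days. All later values lay above those of day 0 in the same arm. FBS cells rose by 2.59 (SE 0.38, adjusted p = 0.00928) to day 3 and by 2.27 (SE 0.38, adjusted p = 0.0107) to day 10, and serum-free cells by 1.99 (SE 0.38, adjusted p = 0.0317) to day 10. With the slide as a block both FBS calls held, and the serum-free one became 2.66 (adjusted p = 0.0508). In serum-free cells Oas2 had 126 and 82.9 units at day 0, 189 and 118 at day 3 and 262 and 369 at day 10. Oas2 in FBS cells had 40.1 and 40.2, 151 and 137, and 59.1 and 155 units at these days. Oas2 rose in FBS cells by day 3, by 1.84 (SE 0.47, adjusted p = 0.044), with both day 3 values above both day 0 values. Oasl2, a related protein, spanned 5.22 log2 units. In serum-free cells Oasl2 had 181 and 308 units at day 0, 255 and 176 at day 3 and 253 and 572 at day 10. Oasl2 in FBS cells had 121 and 367, 124 and 303, and 15.3 and 97.3 units at these days. The arms overlapped at days 0 and 3 and not at day 10, where serum-free cells were higher by 3.30 (SE 0.62, adjusted p = 0.0285). In FBS cells Oasl2 changed by day 10 by -2.45 (SE 0.62, adjusted p = 0.0414), and its lowest value, 15.3, was on the FBS day 10 Dazl-GFP array.

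Mx2 is an antiviral GTPase. In serum-free cells Mx2 had 79.1 and 80.5 units at day 0, 111 and 84.6 at day 3 and 75.1 and 142 at day 10. Mx2 in FBS cells had 16.4 and 12.4, 30.5 and 68.5, and 25.8 and 48.8 units at these days. The arms did not overlap on any day. At day 0 Mx2 was well above background on 1 of 2 FBS arrays, and serum-free cells were higher by 2.49 (SE 0.43, adjusted p = 0.0451). Mx2 rose in FBS cells by day 3, by 1.68 (SE 0.43, adjusted p = 0.046). No Mx2 call held in any of the 12 fits that left out an array. Rsad2 (viperin) makes a nucleotide that stops viral polymerases. In serum-free cells Rsad2 had 81.9 and 56.6 units at day 0, 69.7 and 83.5 at day 3 and 188 and 109 at day 10. Rsad2 in FBS cells had 49.9 and 15.3, 27.2 and 36.2, and 27.2 and 32.8 units at these days. At the probe tested all serum-free values lay above all FBS values, while at its other probes the arms overlapped at day 0. Serum-free cells were higher at day 10 by 2.26 (SE 0.49, adjusted p = 0.044). Its 3 probes gave 1.00, 2.26 and 2.85, of which the first and last did not pass (adjusted p = 0.12 and 0.0511). The Rsad2 difference was 0.36 (adjusted p = 0.849) with the slide as a block. Bst2 (tetherin) holds budding virus at the cell surface. In serum-free cells Bst2 had 13040 and 14170 units at day 0, 20980 and 12310 at day 3 and 23050 and 24760 at day 10. Bst2 in FBS cells had 21530 and 17250, 11390 and 13190, and 6144 and 6418 units at these days. The FBS day 10 values were the 2 lowest of the 12 and the serum-free day 10 values the 2 highest, a difference of 1.93 (SE 0.26, adjusted p = 0.0117), and FBS cells changed by -1.62 (SE 0.26, adjusted p = 0.00869) from day 0 to day 10. The FBS fall held in 11 of the 12 fits that left out an array and with the slide as a block.
Ifi35, a protein that works with Nmi, rose in FBS cells by day 3, by 1.38 (SE 0.28, adjusted p = 0.0233). In serum-free cells Ifi35 had 332 and 476 units at day 0, 637 and 514 at day 3 and 450.4 and 820.4 at day 10. Ifi35 in FBS cells had 145 and 263, 447 and 577, and 265 and 382 units at these days. Its 2 FBS day 0 values were the lowest of the 12. Isg20, an exonuclease, ranged from 21.3 to 56.35 units in serum-free and from 23.2 to 54.1 in FBS cells, and Parp14 from 424.5 to 964 and from 271 to 886. Ifi44 was above background on 4 arrays by any probe and on 3 by the probe tested, which had 2.665 to 41.0 units in serum-free and 4.42 to 21.4 in FBS cells, and Mx1 had 2.73 to 10.6 and 5.66 to 15.5 units. At the probes tested, none of Isg20, Parp14 and Ifi44 was called in any of these comparisons. Another Parp14 probe was higher at FBS day 3 than at day 0, by 1.15 (adjusted p = 0.0464).

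Isg15 is a small protein that is attached to others like ubiquitin, Trim25 helps to attach ubiquitin to RIG-I, and Usp18 removes Isg15 and damps the type I receptor. In serum-free cells Isg15 had 313 and 243 units at day 0, 189.5 and 147 at day 3 and 241 and 541 at day 10. Isg15 in FBS cells had 91.2 and 111, 261 and 564, and 63.2 and 172 units at these days. Isg15 had its lowest 3 values in FBS cells at days 0 and 10 and its highest in FBS cells at day 3. It rose in FBS cells by day 3, by 1.93 (SE 0.48, adjusted p = 0.0428), and its day 10 arm difference of 1.79 (SE 0.48, adjusted p = 0.0789) did not pass. In serum-free cells Usp18 had 232 and 122 units at day 0, 458 and 217 at day 3 and 289 and 604 at day 10. Usp18 in FBS cells had 33.9 and 39.8, 74.9 and 164, and 31.6 and 74.8 units at these days. Usp18 was lower in FBS cells on every pair of same-day arrays and did not overlap between the arms on any day. The difference was 3.10 (SE 0.62, adjusted p = 0.0346) at day 10, and 2.19 (SE 0.62, adjusted p = 0.107) and 1.51 (SE 0.62, adjusted p = 0.116) at days 0 and 3, which did not pass. Trim25 had 11220 to 13950 units in serum-free cells and 5131 to 11540 in FBS cells, without a call.

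The IRG and GBP genes code for GTPases that gather on vacuoles of microbes. Iigp1 spanned the widest range of the members. In serum-free cells Iigp1 had 92.3 and 82.5 units at day 0, 26.1 and 26.9 at day 3 and 34.1 and 93.0 at day 10. Iigp1 in FBS cells had 6.04 and 3.36, 8.40 and 29.5, and 2.19 and 11.0 units at these days. All 6 serum-free values were well above background, against 1 of 6 FBS values, that of the day 3 Stella-GFP array. Serum-free cells were at least 9.14-fold higher at day 0 (adjusted p = 0.045) and at least 5.17-fold higher at day 10 (adjusted p = 0.0396). These adjusted p are from the limma test of the measured differences, which used the dim FBS values, and not of the bounds. The day 3 difference of 0.75 (SE 0.74, adjusted p = 0.472) did not pass. In serum-free cells Irgm1 had 1074 and 911 units at day 0, 1628 and 946 at day 3 and 3751 and 4322 at day 10. Irgm1 in FBS cells had 167 and 569, 616 and 1115, and 124 and 604 units at these days. Irgm1 stood far above its other values on both serum-free day 10 arrays. The day 10 difference was 3.88 (SE 0.69, adjusted p = 0.0267), it was 3.89 at a second probe, and it was 5.08 (adjusted p = 0.313) with the slide as a block. The change of Irgm1 in serum-free cells by day 10, 2.02 (SE 0.69, adjusted p = 0.129), did not pass. Igtp had 546 to 1260 units in serum-free cells and 156 to 624 in FBS cells, and its day 10 difference of 1.96 (SE 0.49, adjusted p = 0.0656) did not pass.
Gbp2 was the member called in the difference of day 3 changes between the arms. In serum-free cells Gbp2 had 129.6 and 108 units at day 0, 41.1 and 36.3 at day 3 and 56.3 and 60.5 at day 10. Gbp2 in FBS cells had 51.8 and 63.0, 52.0 and 64.4, and 27.8 and 26.2 units at these days. Serum-free cells were highest at day 0 and FBS cells lowest at day 10. Gbp2 was higher in serum-free cells at day 0 by 1.05 (SE 0.19, adjusted p = 0.0488) and at day 10 by 1.11 (SE 0.19, adjusted p = 0.0247). It changed in serum-free cells by -1.61 (SE 0.19, adjusted p = 0.00464) to day 3 and by -1.02 (SE 0.19, adjusted p = 0.0307) to day 10, and in FBS cells by -1.08 (SE 0.19, adjusted p = 0.0131) to day 10. The change in FBS cells to day 3 was 0.02, and the difference of the day 3 changes was -1.63 (SE 0.27, adjusted p = 0.0424). That last call passed in 1 of the 12 fits that left out an array, the one without the FBS day 0 Stella-GFP array. In serum-free cells Gbp3 had 185 and 179 units at day 0, 74.0 and 39.1 at day 3 and 110.2 and 138 at day 10. Gbp3 in FBS cells had 28.0 and 64.8, 69.4 and 131, and 5.19 and 34.9 units at these days. Gbp3 was lowest on the FBS day 10 Dazl-GFP array, where it was not well above background, and its day 10 difference of 3.20 (SE 0.73, adjusted p = 0.0503) did not pass.

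**Figure D4:**
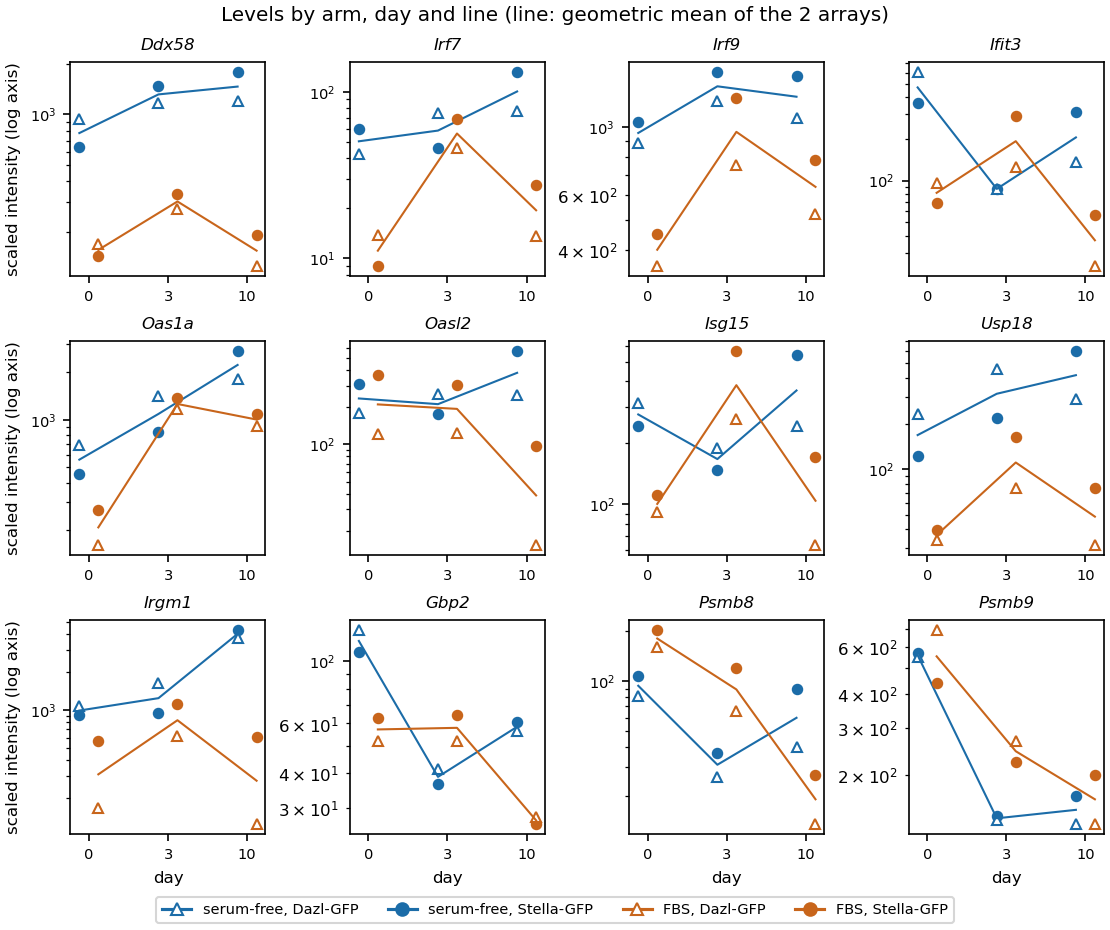
Scaled intensity (log axis) of 12 interferon response genes by day in serum-free and FBS cells, a point per array with the line given by its shape, and lines through the geometric mean of both arrays. Ddx58 and Usp18 do not overlap between the arms on any day, whereas Irf7, Oas1a and Isg15 meet or cross at day 3.

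The antigen presentation genes Psmb8 and Psmb9 fell by day 3 in both arms. They are subunits of the immunoproteasome, which cuts peptides for MHC class I, and Tap1 carries these peptides into the endoplasmic reticulum. In serum-free cells Psmb8 had 81.1 and 108 units at day 0, 26.2 and 36.7 at day 3 and 40.0 and 89.4 at day 10. Psmb8 in FBS cells had 161 and 204, 65.8 and 120.1, and 13.5 and 27.0 units at these days. FBS cells had the highest Psmb8 values at day 0 and the lowest average at day 10. In FBS cells Psmb8 changed by -1.03 (SE 0.24, adjusted p = 0.0342) to day 3 and by -3.24 (SE 0.24, adjusted p = 0.00139) to day 10. This day 10 fall passed in all 12 fits that left out an array and with the slide as a block. In serum-free cells Psmb8 changed by -1.59 (SE 0.24, adjusted p = 0.00884) to day 3. The arm difference was -1.52 (SE 0.24, adjusted p = 0.00712) at day 3 and 1.64 (SE 0.24, adjusted p = 0.0141) at day 10. So the sign turned between these days. A second Psmb8 probe had the same signs and passed for the serum-free day 3 and FBS day 10 changes. Between the arms it did not pass, at -1.14 (adjusted p = 0.0507) and 1.35 (adjusted p = 0.0727). Nor did it in FBS cells by day 3, at -0.94 (adjusted p = 0.123). In serum-free cells Psmb9 had 549.6 and 567 units at day 0, 136 and 140.4 at day 3 and 132 and 168 at day 10. Psmb9 in FBS cells had 693 and 441, 268 and 225, and 132 and 200.1 units at these days. In both arms the Psmb9 values of days 3 and 10 lay below those of day 0. Psmb9 changed by -2.01 (SE 0.29, adjusted p = 0.00761) to day 3 and -1.91 (SE 0.29, adjusted p = 0.0163) to day 10 in serum-free cells, and by -1.17 (SE 0.29, adjusted p = 0.0406) and -1.76 (SE 0.29, adjusted p = 0.00959) in FBS cells. Its arm differences were between -0.83 and 0.01 and did not pass. Tap1, whose promoter window overlaps that of Psmb9, had 39.6 to 56.0 units in serum-free cells and 17.4 to 83.0 in FBS cells, and B2m, the light chain of MHC class I, had 738 to 1440 and 1081 to 1784. Neither was called at the probe tested. Another B2m probe was higher at serum-free day 3 than at day 0, by 2.13 (adjusted p = 0.0422), against -0.19 at the probe tested.

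Other genes of the pathway were counted from lists chosen with earlier results known. Of 19 interferon genes 15 had a probe and 9 were tested. Ifnb1 was well above background on 0 of 12 arrays, at 2.77 to 6.90 units in serum-free and 2.35 to 5.89 in FBS cells. The Ifna genes are near-identical copies whose probes may share signal, so that their values are uncertain. Over the 3 arm comparisons 0, 0 and 1 of the interferon genes were higher (0.997%, 9.07% and 2.01% of all genes). Lower were 0, 2 and 0 (0.842%, 13.5% and 3.54%), and the 3 called differences were under 1 in size. The receptor genes Ifnar1 and Ifnar2 were well above background on all 12 arrays and were not called.
Of 10 tested genes of the induction pathway, such as Mavs and Irf3, 0 were higher in any arm comparison, and 3 were lower at day 3 (13.5% of all genes) and 2 at day 10 (3.54%). Of 7 tested negative regulators 1 was higher in serum-free cells at day 0 (0.997% of all genes), 2 at day 3 (9.07%) and 1 at day 10 (2.01%). Lower were 0, 2 and 1 of them (0.842%, 13.5% and 3.54%). Socs3, a LIF-induced inhibitor of JAK kinases and 1 of the 7, was lower in serum-free cells, at -2.31 (SE 0.15, adjusted p = 0.000925) on day 3 and -1.42 (SE 0.15, adjusted p = 0.00622) at day 10. In serum-free cells Socs3 had 7325 and 6992 units at day 0, 3499 and 3163 at day 3 and 2904 and 2949 at day 10. Socs3 in FBS cells had 8596 and 7259, 17260 and 15750, and 7837 and 7798 units at these days. The arms overlapped at day 0, and Socs3 was lower in serum-free cells on each later array pair. Ptpn6, another of the 7, went the other way, with both serum-free values above both FBS values on each day.
Of 33 other tested interferon-inducible genes 1 was higher in serum-free cells at day 0 (0.997% of all genes), 2 at day 3 (9.07%) and 6 at day 10 (2.01%). At these days 0, 7 and 0 were lower (0.842%, 13.5% and 3.54%). The median difference over the 33 genes was 0.34, 0.15 and 0.92. The 6 at day 10 were Ccl5, Gbp4, Rtp4, Trim21, Epsti1 and Ifi27l2a. Gbp4 here is another probe than the one written Gbp4 in the files, which is Gbp3. Ccl5, a chemokine, was higher by 4.02 (SE 0.23, adjusted p = 0.00224) at day 0 and 2.91 (SE 0.23, adjusted p = 0.00467) at day 10. In serum-free cells Ccl5 had 632 and 836 units at day 0, 143 and 162 at day 3 and 389 and 339.9 at day 10. Ccl5 in FBS cells had 39.5 and 50.7, 85.3 and 113, and 53.7 and 43.6 units at these days. The serum-free Ccl5 values lay above the FBS values at every day. By day 3 in FBS cells 7 of the 33 rose (6.67% of all genes) and 0 fell (5.19%). Among the 7 were Rtp4, by 2.63 (SE 0.59, adjusted p = 0.0299), and Oas3, by 1.91 (SE 0.39, adjusted p = 0.0226). In serum-free cells 0 rose by day 3 (5.94% of all genes) and 6 fell (7.83%). By day 10 in serum-free cells 5 rose (2.15%) and 2 fell (3.04%), and in FBS cells 0 rose (7.71%) and 1 fell (5.31%). Of 10 tested further genes of MHC class I presentation, 0 were higher in any arm comparison and 1 was lower at day 3 (13.5% of all genes) and 1 at day 10 (3.54%). By day 3, 0 of these 10 rose and 1 fell in serum-free cells (5.94% and 7.83% of all genes). In FBS cells 2 rose and 0 fell by then (6.67% and 5.19%). By day 10, 0 rose and 2 fell in serum-free cells (2.15% and 3.04%), and 0 rose and 1 fell in FBS cells (7.71% and 5.31%). Psmb10, the remaining immunoproteasome subunit and 1 of the 10, changed by day 10 in serum-free cells by -1.51 (SE 0.24, adjusted p = 0.0175) and in FBS cells by -1.97 (SE 0.24, adjusted p = 0.00381).

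The members' medians differed most between the lines at day 10. Over all groups Dazl-GFP minus Stella-GFP was called for Psmb8, at -0.71 (SE 0.14, adjusted p = 0.0437), which is 1 of 35 lower against 1.64% of all genes, and 0 were higher (1.11%). A second Psmb8 probe gave -0.72 (adjusted p = 0.124), which did not pass. The members' median line difference was -0.26, against -0.03 over all genes. Of the 27 measured on all arrays 1 was called lower and 0 higher, and their median was -0.26. In serum-free cells at day 10, where both arrays lay on slide 3, 34 of 35 members were lower in Dazl-GFP than in Stella-GFP cells (44.5% of all genes were), with a median of -0.57 against 0.05. Rsad2 was the exception, at 0.79. In FBS cells at day 10, where the arrays lay on different slides, 30 of 35 members were lower in Dazl-GFP (50.7% of all genes), with a median of -0.59. At serum-free day 0 and FBS day 0 the counts were 17 and 19 of 35, where 62.4% and 55.2% of all genes were lower. At serum-free day 3, 12 were lower (median 0.20, 56.4% of all genes lower), and at FBS day 3, 28 were lower (median -0.46, 47.0% of all genes lower). These line differences within a group are from 1 array of each line and were not tested. With the slide as a block the Psmb8 call between lines became -0.75 (adjusted p = 0.332), and it was lost in all 12 fits that left out an array.

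Markers of other cell types moved with some of these comparisons. Summed over 14 fibroblast markers, the scaled intensity was 31131 and 34940 at day 0, 13545 and 17829 at day 3, and 20504 and 34256 at day 10 in serum-free cells. In FBS cells it was 39378 and 38722, 51078 and 86218, and 34049 and 48067. At day 3, 11 of the 13 tested fibroblast markers were lower in serum-free cells (13.5% of all genes) and 0 higher (9.07%). Their median change in FBS cells from day 0 to day 3 was 0.62. In that change 1 was called higher (6.67% of all genes) and 0 lower (5.19%). FBS day 3 was also where Oas1a, Irf7, Isg15 and the other members named above rose. Of the macrophage markers 2 of 10, Ctss and Csf1r, were called higher at FBS day 3 than at day 0 (6.67% of all genes). Among them 0 were lower (5.19%), and the median over the 10 was 0.71. The part of feeder or other cells in that rise was not tested. At days 0 and 10 the fibroblast sums were lower on the serum-free array of each line, where the members' medians were higher. At day 0, 1 of the 13 tested markers was called lower (0.842% of all genes), and at day 10, 3 were (3.54%). At both days 0 were called higher (0.997% and 2.01%). The medians were -0.32 and -0.31, and single markers differed by -1.85 to 0.91 and by -2.19 to 0.91. At day 0 Col1a1 and Col1a2 were higher in serum-free cells of both lines. At serum-free day 10 all 13 fibroblast markers were lower in Dazl-GFP than in Stella-GFP cells (median -0.90), as 34 members were. At serum-free day 3 all 13 were lower too (median -0.58) while 23 members were higher, and at serum-free day 0, 11 were lower while 18 members were higher. At FBS day 0, 4 of the 13 were lower (median 0.46) while 19 members were lower, and at FBS days 3 and 10, 12 markers were lower each. Of 10 macrophage markers 8, 5 and 1 were lower in Dazl-GFP at serum-free days 0, 3 and 10, with a median of 0.63 at day 10. In FBS cells 1, 6 and 4 of the 10 were lower at these days. The part of feeder or other cells in the line difference was not tested. The sum over 11 macrophage markers was 2306 and 2546, 2016 and 1365, and 2237 and 1649 in serum-free cells at days 0, 3 and 10, and 5655 and 1936, 3913 and 6190, and 2138 and 1776 in FBS cells. Ptprc, a marker of blood cells, was well above background on 4 arrays and Itgam on 1. At day 3, 6 of 10 tested macrophage markers were lower in serum-free cells (13.5% of all genes) and 1 was higher (9.07%). At day 10 none was called lower (3.54%) or higher (2.01%).

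**Figure D5:**
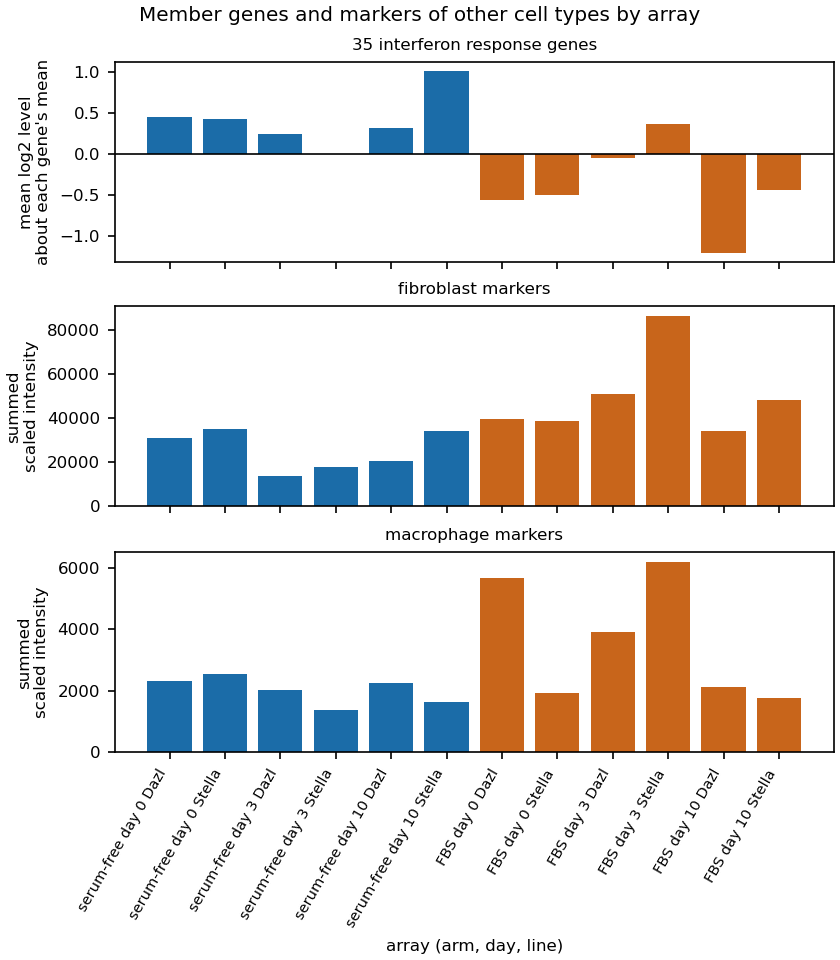
Mean log2 level of the 35 interferon response genes about each gene's mean (top), and summed scaled intensity of the fibroblast (middle) and macrophage markers (bottom), a bar per array. The FBS day 3 Stella-GFP array has the highest fibroblast sum, 86218, and the serum-free day 10 Stella-GFP array the highest member mean, 1.00.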

How the data were processed

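RNA of 12 samples was hybridised to one-colour Agilent arrays of 45018 spots. Per the file headers, the authors' scanner files were made with Agilent Feature Extraction, which gave each spot a background-subtracted and detrended intensity (the processed signal). No count or sequencing depth belongs to such values, and the number of arrays limits their precision. The series table deposited by the authors holds a signal per spot which, set against the scanner files, is the background-subtracted signal divided by the array's median, and no source used here describes it.

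From the deposited intensity, log2 of the processed signal minus the array's 75th percentile was computed, without control spots and spots marked as irregular, and spots of a probe were averaged. A gene was represented by its probe with the highest mean and tested where that probe was well above background on at least 2 arrays (21374 genes). Gene names came from the files and, by accession, from RefSeq. The groups and the line as a term were fitted with limma 3.58.1 (lmFit and eBayes, R 4.3.3) on all 12 arrays, with Benjamini-Hochberg adjustment over all genes at 0.05. Each script that tested across genes was tested on simulated data.

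Each group holds a Dazl-GFP and a Stella-GFP array, so the labelled cell line pairs the samples. Deviations from the group means of same-line arrays correlated at -0.047 to 0.572 over the 15 pairs of groups (median 0.159, 13 of them above 0.1). Members called in a comparison or with the widest range were described on every array, and the others by range. The members and gene lists were chosen with earlier results of these data known. Alternatives were quantile normalization, normexp background correction with an offset of 50, the authors' table with a floor of 0.1, no filter on dim genes, every probe separately, no line term, the slide as a block, and each array left out in turn. The counts for the list of receptor and kinase genes are not reported here.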

Additional observations from a re-analysis of the deposited data

Results flagged for a closer look

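Gbp2 stood out because its change from day 0 to day 3 differed between the arms by a test of that difference itself. The serum-free change minus the FBS change was -1.63 on the log2 scale (SE 0.27, adjusted p = 0.0424 in limma). It was negative in both lines. The call held in 2 of the 7 alternative runs on all arrays and was lost in most fits that left out an array.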

How the results depend on the processing

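No called difference of a named member changed sign under any alternative run. Of the 49 calls of named members, 47 held with normexp, 41 with quantile normalization and 41 with the authors' table. Without a filter 33 held, and with the slide as a block 15 did. All 49 held with every probe tested separately, but that run keeps the values of the probe tested. It does not show that other probes of a gene passed. Other probes of Ddx58, Irf9, Ifit3, Psmb8 and Rsad2 did not pass in several of these calls. Without the line term (no replicate block, the unpaired fit) 27 held and 21 did not, and the members called numbered 1 between the arms at day 0, 6 at day 10, 5 in FBS cells by day 3 and 0 in the difference of day 3 changes. Over all genes 133, 596, 1582 and 20 were called in these, against 393, 1187, 2534 and 336 with the line term. With normexp 14, 14 and 21 members were called between the arms at days 0, 3 and 10, 9 and 23 by day 3 in serum-free and FBS cells, 12 and 2 in the differences of changes by days 3 and 10, and 5 between the lines. Over all genes it called 989, 9644 and 1664, then 3734 and 8614, then 3159 and 332, and 1331, so that the members' share at day 3 between the arms lay below that of all genes. Its arm medians were 0.69 at day 0 and 0.80 at day 10, and its median difference of day 10 changes was 0.09. Quantile normalization called 0 members in the difference of day 3 changes (282 of all genes) and 0 between the lines (579), and gave a day 10 arm median of 1.30. The authors' table called 0 and 1 members in the differences of changes by days 3 and 10 (323 and 205 of all genes). Its day 10 arm median was 1.27 and its median difference of day 10 changes was -0.10. Without a filter 2 members were called between the arms at day 0, 5 in FBS cells by day 3, 0 in the difference of day 3 changes and 0 between the lines. Over all genes 198, 2031, 86 and 391 were called in these, against 393, 2534, 336 and 587 with the filter. Every probe tested separately gave 5 members between the arms at day 3 (7539 probes in all) and 8 in serum-free cells by day 3 (4598 probes). With the slide as a block 0, 1 and 0 members were called between the arms at days 0, 3 and 10, 0 in serum-free cells by day 10, 4 in FBS cells by day 3, 0 in the difference of day 3 changes and 0 between the lines. Over all genes that fit called 0, 1404, 0, 0, 727, 0 and 1 in these comparisons. Its day 10 arm median was 1.90 and its median difference of day 10 changes was 0.62. The cause of these moves was not tested.

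Leaving out 1 array at a time leaves a lone array in its group, whose spread is taken from the other groups. In most of these fits fewer of all genes were called as well. The counts of members called were then 0 to 3, 1 to 6 and 0 to 13 between the arms at days 0, 3 and 10, with medians of 0.91 to 1.34, -0.30 to 0.51 and 1.08 to 1.70. In serum-free cells they were 0 to 7 by day 3 (medians -0.29 to 0.58) and 0 to 3 by day 10 (0.02 to 0.59). In FBS cells they were 0 to 10 by day 3 (0.58 to 1.00) and 2 to 7 by day 10 (-0.49 to 0.24). The differences of changes gave 0 to 1 by day 3 (-1.32 to -0.62) and 0 to 0 by day 10 (-0.09 to 0.60), and the line gave 0 to 1 (-0.39 to -0.13). Members near background, such as Ifi44, Ifit1, Ifit2 and Iigp1, have values limited by the signal of the dim arrays.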

Other observations

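Cxcl10, a chemokine that interferon gamma is known to induce, had 263 and 282 units at day 0, 21.8 and 34.9 at day 3, and 32.5 and 49.9 at day 10 in serum-free cells. Cxcl10 in FBS cells had 19.5 and 71.9, 29.9 and 33.7, and 9.19 and 49.3 units at these days, the Dazl-GFP array first. It stood far higher on both serum-free day 0 arrays than on any other, and its change by day 3 in serum-free cells was -3.30 on the log2 scale. Among the 12 members with several measured probes, the probes had the same sign for 10, 8 and 9 of them between the arms at days 0, 3 and 10. Rsad2 at day 3 is an example, with arm differences of 0.34, 1.28 and 2.45 at its 3 probes, of which the last passed (adjusted p = 0.0322). An ISRE core stood in the window of 6 of the 10 members with a window that were higher in serum-free cells at day 10, and in 15 of all 29 with one.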
